A study of Rattus norvegicus with 2 samples.

Results

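The cells described here are Schwann cells (SCs) of the rat dorsal root ganglion (DRG) that carried transcripts of Emp1 together with Igfbp3, Nes, Tnfrsf12a or Fgf2. They numbered 903 of the 20811 cells kept from both libraries. The members were chosen by their own measured counts. A cell needed at least 1000 unique molecular identifiers (UMIs, each standing for 1 captured transcript) with under 20% from Mt- genes. Per 10000 UMIs it needed at least 5 of Emp1 and 3 of S100b, under 12 of Fabp7 plus Tyrp1, under 5 of Prx plus Mag plus Cldn19, under 2 of Cldn5 plus Flt1 plus Cdh5, under 10 of Tagln plus Acta2 and under 3 of Lum. It also needed at least 2 raw UMIs of Igfbp3, Nes, Tnfrsf12a and Fgf2 together, and more of these than of Fxyd1, Sostdc1 and Cdh19 together.

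The study set rats with diabetic peripheral neuropathy (DPN) against normal rats. DPN rats were male Sprague Dawley rats injected once into the peritoneum with streptozotocin (STZ), a toxin of insulin-producing cells, at 65 mg/kg in citrate buffer. Control rats were of the same sex and strain and received the buffer alone. Rats were 8 weeks old at purchase, were kept for 1 week before the injection, and gave their bilateral L3 to L6 DRGs 8 weeks after it. The ganglia of 5 rats were pooled into 1 droplet library of 3′ transcript ends for each condition, so DPN and control differ by 1 pool each and no test between conditions was possible. The ranges given below are 95% intervals, exact Poisson for a level and exact conditional binomial for a ratio. They cover counting error alone and say nothing of differences between rats or between preparations.

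Schwann cells are the glia of peripheral nerve fibres. Some wrap a single large axon in myelin, whereas non-myelinating cells hold several small axons in a bundle. After nerve injury both kinds can leave their resting state, take up growth-associated and filament genes and help axons to regrow. Nestin, fibroblast growth factors and the TWEAK receptor are best known from immature or injured tissue.

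The DPN library held 413 members, 3.75% (3.4 to 4.12, exact binomial) of its 11013 kept cells, and the control library 490, 5.0% (4.58 to 5.45) of 9798. Because the last limit used raw counts, the number found depends on depth. Median depth was 5919 UMIs and 1963 genes in DPN members, against 6709.5 UMIs and 1954.5 genes in control members. Mt- transcripts took a median of 11.7% of UMIs in DPN members and 12.2% in control members. Likely doublets, droplets that may hold a pair of cells, made up 9.69% of DPN members and 5.51% of control members and were kept. Over whole libraries the totals were 115409375 UMIs in 13168 DPN barcodes and 121101966 UMIs in 11011 control barcodes. Of all barcodes 38 occurred in both libraries, and 0 of these were members.

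In the UMI difference used by its last limit, the gate drew a line through a continuous range of cells. Before the last limit, 893 further DPN cells and 634 further control cells met every other one. The 104 DPN members only 1 or 2 UMIs above the limit had a median of 9 marker UMIs and 7 UMIs of Fxyd1, Sostdc1 and Cdh19, and the 110 DPN cells that were equal or 1 UMI below had medians of 7 and 7. In the control library the 87 members just above had medians of 10 and 8, and the 76 cells just below had 8 and 9. Members still carried genes of non-myelinating cells. Fxyd1, a regulator of the sodium pump, had a UMI in 96.1% of DPN members and 96.9% of control members, and Cdh19, a Schwann lineage cadherin, in 77.7% of DPN members and 73.9% of control members. Fxyd1, Sostdc1 and Cdh19 are not confined to non-myelinating cells. They summed to 1178 CPM in DPN and 1202 CPM in control members, and to 858 CPM in DPN and 909 CPM in control satellite glia. On this difference the population is therefore a range cut from a continuum. Whether the members separate from other cells in further genes was not tested.

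**Figure D1:**
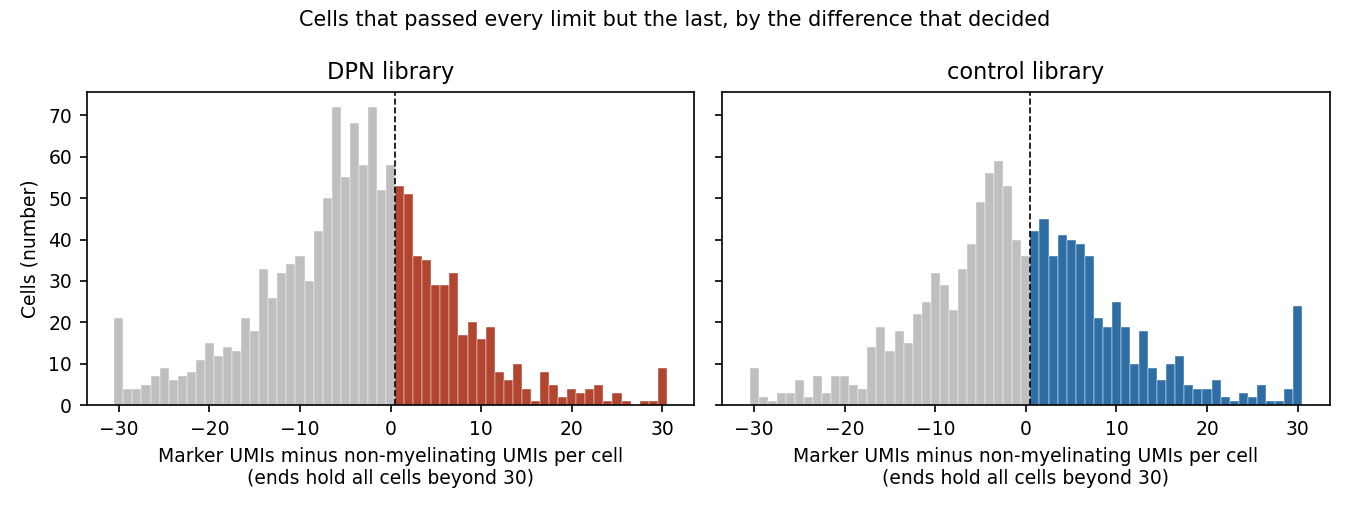
Number of cells (y axis) by marker UMIs minus UMIs of Fxyd1, Sostdc1 and Cdh19 per cell (x axis), among cells that passed every limit but the last, in the DPN library (left) and the control library (right). Coloured bars right of the dashed line are the 413 DPN and 490 control members and grey bars the cells left out. The counts run through the line without a gap in both libraries.

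The label was checked against Schwann lineage genes that the gate did not use. Sox10, the transcription factor that defines the neural crest glial lineage, stood at 84.1 CPM (UMIs per 1000000 UMIs of the class and library) in DPN members and 66.1 CPM in control members. Erbb3, the neuregulin receptor subunit of SCs, stood at 114 CPM in DPN members and 84.1 CPM in control members. All 20 lineage genes with a symbol in the files had UMIs in the members of both libraries. Summed, they came to 6257 CPM in DPN and 6597 CPM in control members, against 6519 CPM in DPN and 6605 CPM in control non-myelinating SCs. Satellite glia had UMIs of all 20 as well, with sums of 4515 CPM in DPN and 4581 CPM in control, so these genes place the members in the glial lineage but hardly set them apart from satellite glia.

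Markers of other cell types differed in level. The endothelial list summed to 19.5 CPM in DPN members and 13.7 CPM in control members, with Vwf at 0 in both. The macrophage list gave 24.6 CPM in DPN and 31.9 CPM in control members. The fibroblast list came to 192 CPM in DPN and 186 CPM in control members, against 142 CPM in DPN and 155 CPM in control non-myelinating SCs, with Dpp4 at 0 in the members of both libraries. The perineurial list came to 397 CPM in DPN and 517 CPM in control members, against 439 CPM in DPN and 556 CPM in control non-myelinating SCs, with Krt19 and Lypd2 at 0 in the members. The satellite glial cell (SGC) list stood at 31607 CPM in DPN and 31147 CPM in control members, against 76138 CPM in DPN and 91373 CPM in control satellite glia. The part of these transcripts in the results was not tested. Fabp7, an SGC gene limited by the gate, stood at 214 CPM in DPN and 178 CPM in control members, against 1253 CPM in DPN and 1484 CPM in control satellite glia. Satellite glia were chosen by the same Fabp7 plus Tyrp1 limit turned round, so both sides of this gap were set by the gates. Apoe was abundant in every class, at 30089 CPM in DPN and 29819 CPM in control members. The blood list had 693 UMIs in DPN members and 17 in control members. Of the DPN UMIs, 288 of S100a8 lay in 1 cell and 392 of S100a9 lay in 1 cell.

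Tnfrsf12a, the receptor for the cytokine TWEAK, carried most of the gate. It gave 53.0% of the UMIs of the 4 gate markers in DPN members and 61.3% in control members, and had a UMI in 98.1% of DPN and 99.2% of control members. Its level was 1247 CPM in DPN and 1556 CPM in control members, against 311 CPM in DPN and 468 CPM in control non-myelinating SCs. Nes, which encodes the intermediate filament nestin, stood at 533 CPM in DPN and 405 CPM in control members, and had a UMI in 80.6% of DPN members and 74.9% of control members. Satellite glia, which are deeper, had a Nes UMI in 54.8% of DPN and 57.0% of control cells. With every cell thinned to 1000 UMIs, the Nes shares were 41.9% of DPN and 30.4% of control members, against 10.1% of DPN and 10.5% of control satellite glia. The median depth before thinning was 11128 UMIs in DPN and 13748.5 UMIs in control satellite glia.

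Igfbp3, a secreted binding protein of insulin-like growth factors, was uneven among members. Its level was 441 CPM in DPN and 480 CPM in control members, against 38.6 CPM in DPN and 67.5 CPM in control non-myelinating SCs. Yet the median member had 0 UMIs, and the highest had 79 in DPN and 110 in control. A UMI was found in 150 DPN members (36.3%) and 219 control members (44.7%). Thinned to 1000 UMIs per cell, the shares were 20.8% of DPN and 21.0% of control members, against 1.30% of DPN and 2.29% of control satellite glia. Fgf2, a fibroblast growth factor, had a UMI in 49.4% of DPN and 44.1% of control members, with levels of 133 CPM in DPN and 96.6 CPM in control. The 4 markers occurred together in 69 DPN members (16.7%) and 88 control members (18.0%). Those cells were also deeper, with a median of 7446 UMIs in DPN and 7473.5 UMIs in control. Tnfrsf12a, found in nearly every member, is thus not in the name Igfbp3/Nes/Fgf2 Schwann cells used here. Of the genes in the name, Nes had a UMI in 80.6% of DPN and 74.9% of control members. Fgf2 had one in 49.4% of DPN and 44.1% of control members, and Igfbp3 in 36.3% of DPN and 44.7% of control members.

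The label also names Fdx1 and Itgb8, which the gate did not use. Fdx1, a mitochondrial ferredoxin that passes electrons to steroid-making enzymes, stood at 393 CPM in DPN and 539 CPM in control members, against 161 CPM in DPN and 215 CPM in control non-myelinating SCs. Itgb8, an integrin subunit that can activate latent TGF-beta, stood at 363 CPM in DPN and 284 CPM in control members, against 231 CPM in DPN and 163 CPM in control non-myelinating SCs. Both were thus higher in the members, Itgb8 by 1.57-fold (1.47 to 1.69) in DPN and 1.74-fold (1.62 to 1.88) in control. The label was drawn from these same libraries and is not independent evidence.

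**Figure D2:**
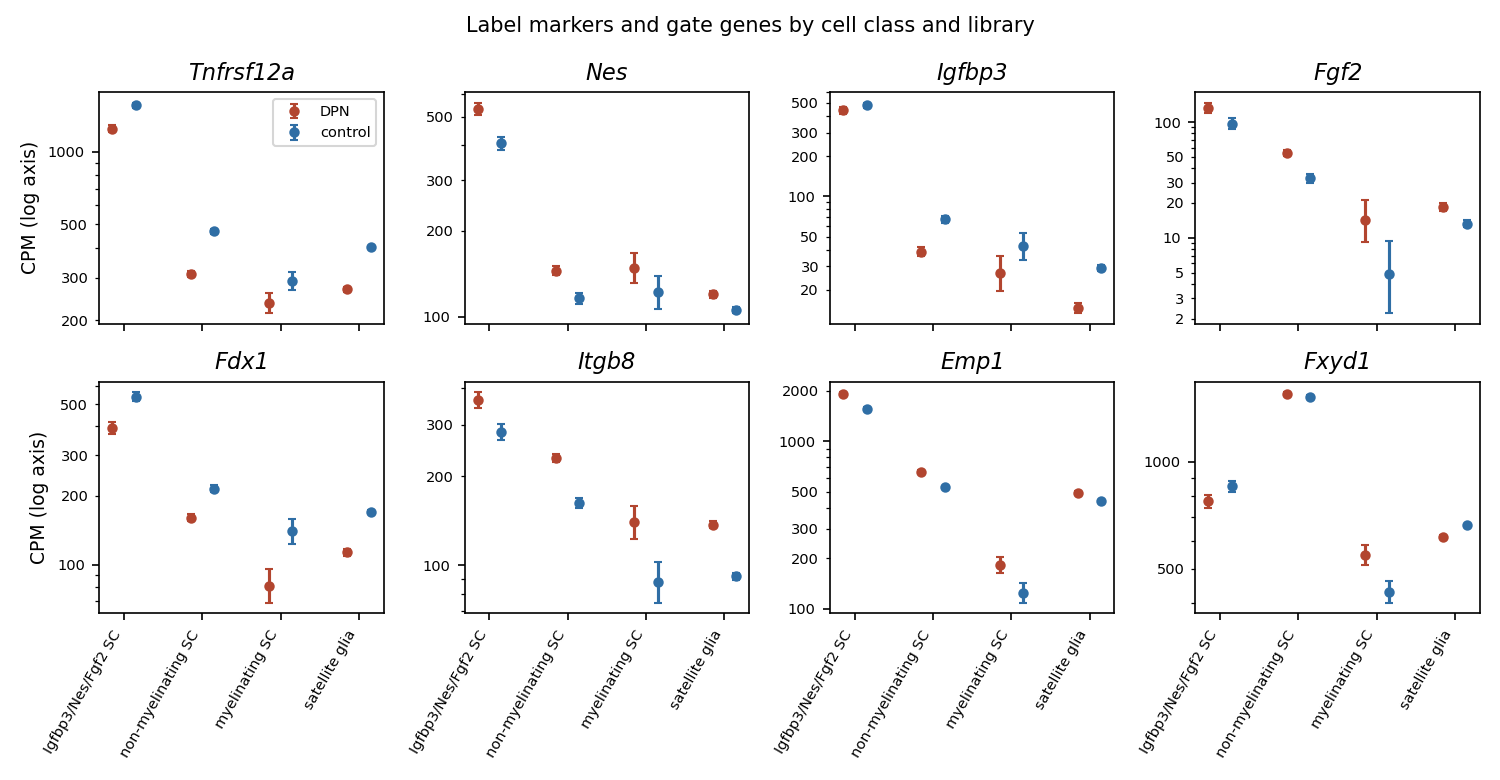
Levels in CPM (y axis, logarithmic, a scale of its own in each panel) of the 6 label markers, Emp1 and Fxyd1 in 4 cell classes (x axis), with DPN in red left of control in blue and exact Poisson 95% intervals as bars. The 6 label markers were highest in the Igfbp3/Nes/Fgf2 Schwann cells of each library, and Fxyd1 was highest in non-myelinating SCs.

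Members with and without an Igfbp3 UMI differed in some further genes, given as a description since Igfbp3 itself made the split. Ngfr, the low-affinity neurotrophin receptor of immature and repair SCs, stood at 61.7 CPM (with) and 34.6 CPM (without) in DPN, and at 63.5 and 25.3 CPM in control. Gap43, a growth-associated protein, stood at 62.7 CPM with and 38.6 CPM without Igfbp3 in DPN, and at 79.0 CPM with and 31.6 CPM without in control. Cryab, a small heat shock protein, ran the other way, at 1470 CPM with against 1947 CPM without Igfbp3 in DPN and 2817 against 3603 CPM in control. Other genes known from repair SCs were not set apart by the split. Clcf1 stood at 41.5 CPM with and 32.9 CPM without Igfbp3 in DPN, and at 34.2 and 35.3 CPM in control. Its intervals overlapped in both libraries. Runx2 was higher with Igfbp3 in both libraries, but its intervals overlapped as well. Whether the members with Igfbp3 are closer to repair SCs was not tested. Nes stood at 560 CPM with and 518 CPM without Igfbp3 in DPN, and at 407 CPM with and 403 CPM without in control. Median depth was 6243.5 UMIs with and 5847 UMIs without Igfbp3 in DPN, and 6791 and 6658 UMIs in control.

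Against non-myelinating SCs of the same library (3030 cells in DPN, 1995 in control), defined by the same limits except Emp1 and with the last limit turned round, 61 of 8385 genes (0.727%) were at least 2-fold higher in the members of both libraries with intervals that left out 1, and 50 (0.596%) were at most 0.5-fold. The cells were chosen on these counts, so the lists describe the gate's result and test nothing. All but one of the label markers, Itgb8, were among the 61. The median log2 ratio of all 8385 genes was 0.05 in DPN and -0.01 in control.

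Ucn2, the peptide hormone urocortin 2, had the highest ratio outside the gate. It reached 27.2 CPM in DPN and 50.2 CPM in control members, against 2.74 CPM in DPN and 4.80 CPM in control non-myelinating SCs. That is 9.92-fold (6.87 to 14.4) in DPN and 10.5-fold (7.92 to 13.9) in control. It lay in few cells, with a UMI in 9.69% of DPN and 13.7% of control members, against 1.23% of DPN and 2.37% of control satellite glia. The fourth-ranked gene, Clcf1, a ligand of the ciliary neurotrophic factor receptor, stood at 36.0 CPM in DPN and 34.8 CPM in control members, against 9.37 CPM in DPN and 9.79 CPM in control non-myelinating SCs. Gdnf, a neurotrophic factor of the repair list, was too sparse to be counted among tested genes, with 6 UMIs in DPN and 19 UMIs in control members.

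Genes of the nuclear envelope and cytoskeleton gave the following values. Lmna (lamin A/C) was 2.12-fold (2.07 to 2.18) in DPN and 2.04-fold (2.01 to 2.08) in control, and Tubb6, a beta-tubulin, was 2.18-fold (2.02 to 2.35) and 2.11-fold (1.98 to 2.24) in DPN and control. Stmn4 and Map6, which act on microtubules, were 3.97-fold (2.69 to 5.80) and 3.52-fold (2.75 to 4.49) in DPN, and 5.97-fold (4.14 to 8.68) and 3.15-fold (2.37 to 4.16) in control. Of the 23 filament and cytoskeleton genes, 3 were called higher (Nes, Lmna, Tubb6), against 0.727% of all genes. In this list 17 genes were above 1 in both libraries, with median log2 ratios of 0.44 in both. Of all 8385 genes, 55.3% were above 1 in DPN and 48.5% in control. Flnc, an actin crosslinker, and Myof, a membrane repair protein, were also among the 15 highest. Myof stood at 40.4 CPM in DPN and 14.3 CPM in control members, against 8.48 CPM in DPN and 4.80 CPM in control non-myelinating SCs.

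Regulators among the higher genes were Ets1, Fosl1 and Runx2. Ets1, a transcription factor downstream of growth factor signalling, stood at 115 CPM in DPN and 91.2 CPM in control members, against 36.1 CPM in DPN and 27.0 CPM in control non-myelinating SCs. Fosl1, a FOS family subunit of the transcription factor AP-1, was 2.45-fold (2.17 to 2.78) in DPN and 2.57-fold (2.29 to 2.88) in control. Runx2, known from repair SCs, was 2.45-fold (1.71 to 3.45) in DPN and 2.74-fold (1.83 to 4.08) in control. Of the 10 genes of the repair list that were tested, 2 were called higher (Runx2, Clcf1), against 0.727% of all genes. The list's medians were 0.31 in DPN and 0.22 in control. All 12 genes of ribosome assembly in the nucleolus were above 1 in both libraries, beside 55.3% of all genes in DPN and 48.5% in control. Of these 12, 2 were called (Gar1, Wdr43), against the same 0.727%, with medians of 0.82 in DPN and 0.92 in control. The 7 translation initiation genes were above 1 in both libraries too, with none called and medians of 0.55 in DPN and 0.56 in control.

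Few further genes in the pathways of the label genes were called between the classes. The counts below stand beside 0.727% of all genes called higher and 0.596% called lower. In the TWEAK receptor and NF-kB list, 14 genes were tested, with Tnfrsf12a called higher and Nfkbia and Tnfaip3, both brakes on NF-kB, called lower. Tnfaip3 was sparse, at 2.94 CPM in DPN and 0.86 CPM (3 UMIs) in control members. Neither brake was called once both classes had to pass the Emp1 limit, a comparison given below. Nfkbia stood at 383 CPM in DPN and 302 CPM in control members, against 790 CPM in DPN and 621 CPM in control non-myelinating SCs. In the IGF list 9 genes were tested and Igfbp3 alone was called. Igfbp7, another binding protein of the list, was 0.84-fold (0.79 to 0.89) in DPN and 0.59-fold (0.56 to 0.63) in control. Of 6 FGF receptor and co-receptor genes tested, Gpc1 alone was called, and Fgfr1 was 1.39-fold (1.16 to 1.65) in DPN and 1.49-fold (1.15 to 1.92) in control. Of 13 genes of the STAT3 and gp130 list, Clcf1 was called, and Stat3 itself was 1.94-fold (1.84 to 2.05) in DPN and 1.69-fold (1.61 to 1.78) in control. With the Emp1 limit on both classes Stat3 was 1.36-fold (1.28 to 1.44) in DPN and 1.21-fold (1.14 to 1.29) in control.

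Immediate early genes are switched on within minutes of a stimulus. Of 20 tested, 6 were called lower in the members (Fos, Junb, Ier3, Klf2, Dusp1, Zfp36), against 0.596% of all genes. In this list 13 were below 1 in both libraries and the medians were -0.44 in DPN and -0.75 in control. Fos stood at 2388 CPM in DPN and 1208 CPM in control members, against 6747 CPM in DPN and 4373 CPM in control non-myelinating SCs. Dusp1, a phosphatase of MAP kinases, was 0.26-fold (0.22 to 0.30) in DPN and 0.23-fold (0.19 to 0.28) in control. Ddit4, a stress-induced inhibitor of mTORC1, was 0.25-fold (0.22 to 0.30) in DPN and 0.25-fold (0.20 to 0.30) in control. Ccl4, a chemokine, was the lowest, with 5 UMIs in DPN and 3 UMIs in control members.

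**Figure D3:**
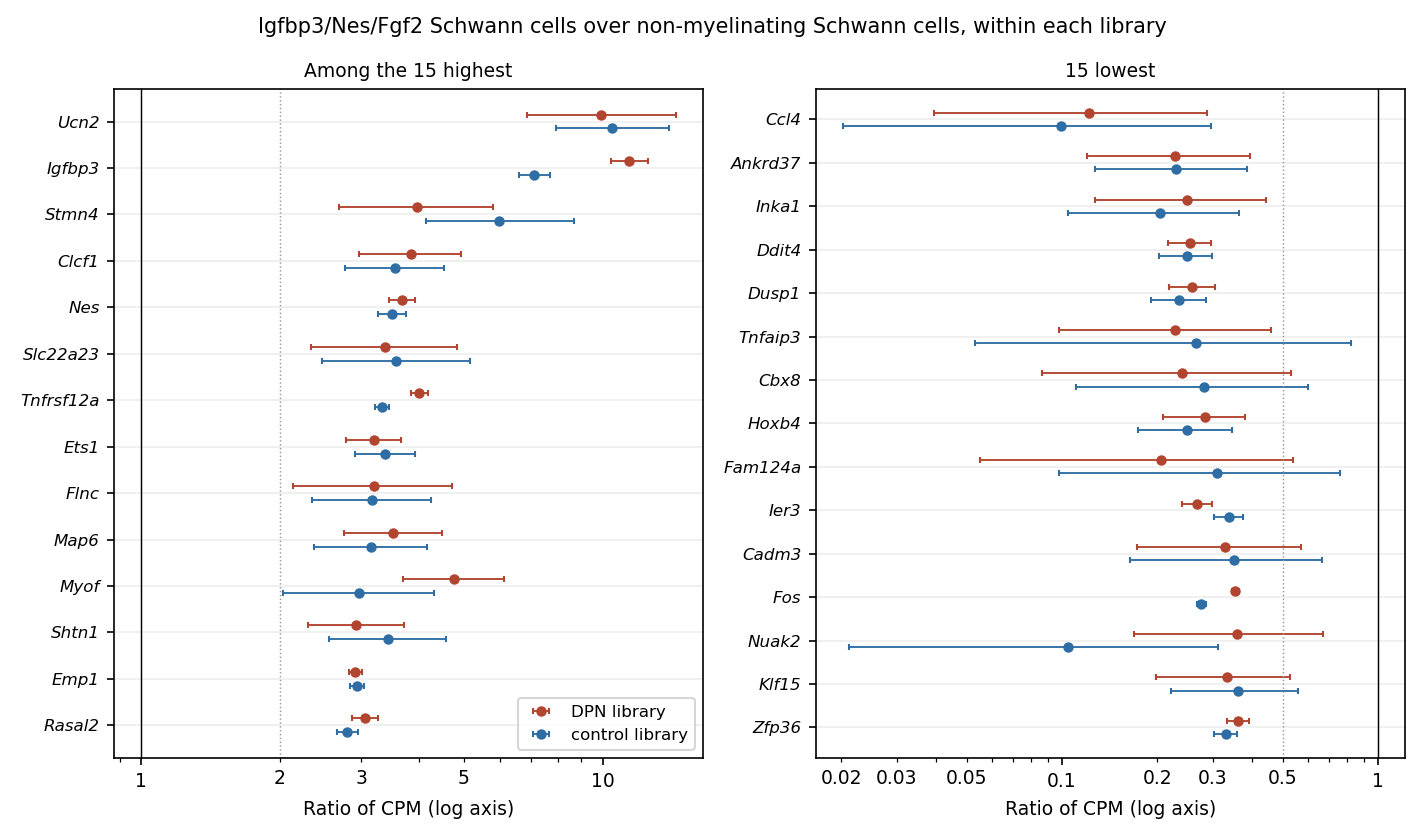
Ratio of CPM in Igfbp3/Nes/Fgf2 Schwann cells over non-myelinating SCs (x axis, logarithmic) for genes among the 15 highest (left) and for the 15 lowest (right), DPN library in red above control library in blue, with 95% intervals; dotted lines mark 2-fold and 0.5-fold. Ucn2 and Igfbp3 lead the left panel at about 10-fold in DPN, and Emp1, Nes, Tnfrsf12a and Igfbp3 are genes of the gate.

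The non-myelinating cells had not had to pass the Emp1 limit. When the same limit was put on them, a comparison added after the data were seen, 1102 of 3030 DPN cells and 664 of 1995 control cells remained, 6308 genes in place of 8385 reached the minimum of 200 UMIs, and 8 genes were higher and 8 lower. Of the 61 higher genes, 8 were still called, 42 were tested but not called and 11 had too few UMIs. Among the 11, Stmn4, Runx2 and Slc22a23 were still past 2-fold in both libraries, Stmn4 at 3.99-fold (2.43 to 6.64) in DPN and 3.12-fold (2.05 to 4.84) in control. Of the 50 lower genes, 6 were still called, 16 were tested but not called and 28 had too few UMIs, 6 of them still past the limit. Among the 8 higher genes were the gate genes Igfbp3, Nes and Tnfrsf12a together with Ucn2, Shtn1, Gpc1 and Syt4. Ucn2 was 5.57-fold (3.65 to 8.66) in DPN and 6.24-fold (4.42 to 9.0) in control. Shtn1 (shootin 1, a protein of axon outgrowth in neurons) was 3.1-fold (2.29 to 4.22) in DPN and 3.16-fold (2.15 to 4.72) in control. Gpc1, a glypican whose heparan sulphate chains bind fibroblast growth factors, was 2.60-fold (1.82 to 3.72) in DPN and 2.53-fold (1.79 to 3.61) in control. The 8 lower genes were Fos, Junb, Dusp1, Zfp36, Cadm3 and the gate gene Sostdc1, all called before, and Il6 and Ch25h. Among those no longer called higher were Fgf2, Fdx1, Clcf1, Ets1, Lmna, Fosl1, Tubb6, Map6, Flnc, Myof, Gar1 and Wdr43. Fosl1 was then 1.39-fold (1.22 to 1.59) in DPN and 1.45-fold (1.28 to 1.65) in control. Nfkbia and Tnfaip3 were no longer called lower. Nfkbia was 0.54-fold (0.50 to 0.58) in DPN and 0.66-fold (0.62 to 0.71) in control, and Tnfaip3 in control was 0.44-fold (0.08 to 1.69). Fgf2 was then 1.75-fold (1.53 to 2.01) in DPN and 1.75-fold (1.49 to 2.06) in control.

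The sequences before the start sites of Emp1 and Ucn2 are shown because these were the gate's first gene and the most enriched gene outside the gate, and because AP-1 subunits were among the genes that differed. Each is the 250 bases before the annotated start in RefSeq (GRCr8), 5′ to 3′ on the gene's strand, with matches to TGANTCA, the AP-1 motif, in capitals. Tnfrsf12a, the gate marker with the most UMIs, is given for comparison. Emp1 lies on the plus strand at chr4:169943980-169944229, Ucn2 on the plus strand at chr8:118515861-118516110 and Tnfrsf12a on the minus strand at chr10:13213649-13213898.
Emp1: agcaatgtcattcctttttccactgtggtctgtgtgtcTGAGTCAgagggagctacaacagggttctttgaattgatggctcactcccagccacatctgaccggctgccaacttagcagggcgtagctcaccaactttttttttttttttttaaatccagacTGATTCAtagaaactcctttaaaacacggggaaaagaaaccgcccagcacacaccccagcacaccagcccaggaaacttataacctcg
Ucn2: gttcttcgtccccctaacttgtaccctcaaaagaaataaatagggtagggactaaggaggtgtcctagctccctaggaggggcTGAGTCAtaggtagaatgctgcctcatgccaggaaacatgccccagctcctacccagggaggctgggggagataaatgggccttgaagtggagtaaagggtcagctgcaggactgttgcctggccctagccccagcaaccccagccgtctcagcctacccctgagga
Tnfrsf12a: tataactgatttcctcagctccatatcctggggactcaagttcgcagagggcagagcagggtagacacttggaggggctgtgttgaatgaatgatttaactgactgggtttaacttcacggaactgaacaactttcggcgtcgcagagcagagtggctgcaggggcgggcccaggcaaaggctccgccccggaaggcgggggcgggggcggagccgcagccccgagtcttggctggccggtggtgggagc
Emp1 held 2 matches, 212 and 88 bases before the start, Ucn2 held 1, 167 bases before it, and Tnfrsf12a held 0. Of the 6 label markers and 15 leading genes, 18 in all, 13 had a promoter entry. The motif stood on either strand in 2 of these (15.4%), against 2122 of 33469 promoters (6.34%). Those 2 are Emp1 and Ucn2, so the sequences shown include every match among the 13. Igfbp3, Itgb8, Nes and Fgf2 held 0 matches. The letters TTCNNNGAA, read by STAT factors, stood in 3 of the 13 (23.1%) against 7.67% of all promoters, GGAATG, read by TEAD factors, in 3 (23.1%) against 12.1%, and TGACGTCA, the cyclic AMP response element, in 0 against 1.59%. All were sought on both strands, and no 7 letters of TGACGTCA match TGANTCA. A match describes the letters and not a bound site.

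Between DPN and control members, 584 of 3494 genes (those reaching 200 UMIs in all and seen in 10% of the members of a library) were at least 1.5-fold higher in DPN (16.7%), and 85 (2.43%) were at most 0.667-fold. The median log2 ratio was 0.06. With every member thinned to 1000 UMIs, 591 genes could be compared and 44 were higher and 46 lower, where the unthinned sums gave 40 higher and 25 lower over the same genes. The called genes also differed in length. The median RefSeq gene length was 56.9 kb for the genes higher in DPN, 7.02 kb for the genes lower and 17.6 kb for the rest, with a length for 94.9%, 82.4% and 94.2% of them. All 11 genes of a list of long or nuclear-retained transcripts were above 1, with a median log2 ratio of 0.99. The part of RNA quality or of intact nuclei in the DPN to control differences was not tested, and pool, preparation and disease cannot be told apart.

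None of the 6 label markers was called between DPN and control. Tnfrsf12a was 0.80-fold (0.77 to 0.84), Fdx1 was 0.73-fold (0.68 to 0.79), Igfbp3 was 0.92-fold (0.85 to 0.99), Nes was 1.32-fold (1.22 to 1.42), Fgf2 was 1.38-fold (1.18 to 1.60) and Itgb8 was 1.28-fold (1.17 to 1.40). Igfbp3, Nes, Fgf2 and Tnfrsf12a served to choose the cells in both libraries, so their ratios are bounded by the gate. In non-myelinating SCs, which the gate kept low in these genes, Igfbp3 was 0.57-fold (0.52 to 0.63) and Fgf2 1.64-fold (1.47 to 1.82).

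Txnip, an inhibitor of thioredoxin whose transcription follows glucose, had the highest ratio. It stood at 218 CPM in DPN and 54.2 CPM in control members, 4.03-fold (3.41 to 4.77), and had a UMI in 57.6% of DPN and 23.3% of control members. In non-myelinating SCs it was 3.36-fold (3.20 to 3.52). Scn7a, a sodium-sensing channel of glia, stood at 414 CPM in DPN and 115 CPM in control members, 3.60-fold (3.21 to 4.05), and was 3.24-fold (3.1 to 3.39) in non-myelinating SCs. Each of the 12 highest genes was at least 2.30-fold in non-myelinating SCs too. Bhlhe40, a repressor tied to the circadian clock, was 3.82-fold (2.82 to 5.24) in members and 2.35-fold (2.10 to 2.64) in non-myelinating SCs. Whether the classes differ in their ratios was not tested.

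Other genes of glucose handling gave values as follows. Of 8 genes of the glucose and polyol list measured, 5 were above 1, beside 54.5% of all tested genes. Txnip and Pfkfb3, a regulator of glycolysis, were called of 5 tested, against 16.7% of all genes. Pfkfb3 at 1.53-fold was 1.22-fold with a Mt- limit of 10% and 1.39-fold without the Emp1 limit, both short of the limit. Akr1b1, the aldose reductase of the polyol pathway, stood at 45.5 CPM in DPN and 45.0 CPM in control members, 1.01-fold (0.79 to 1.29). Slc2a1, the glucose transporter GLUT1, stood at 95.1 CPM in DPN and 95.2 CPM in control members, and its ratio had an interval of 0.85 to 1.18.

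Adamts1, a secreted metalloproteinase, stood at 171 CPM in DPN and 43.9 CPM in control members, 3.90-fold (3.24 to 4.71). Col5a2, a fibrillar collagen chain, was 3.75-fold (2.76 to 5.16), and Col28a1, a collagen of peripheral glia, 3.28-fold (2.69 to 4.01). On a scale that adds 1 to the mean count per 10000 UMIs, which pulls low genes towards 1, Col5a2 was 1.39-fold and Itgav 1.42-fold, both short of the limit. Itgav, an integrin alpha subunit that pairs with the beta subunit of Itgb8, stood at 91.8 CPM in DPN and 27.4 CPM in control members, 3.35-fold (2.64 to 4.29). Of the 10 integrin and matrix receptor genes measured, 7 were above 1 with a median log2 ratio of 0.33, and Itgav and Itgb1 were called of 8 tested, against 16.7% of all genes. Of the 16 matrix and protease genes 13 were above 1, and 13 were tested. Lama2, Lama4, Lamc1 and Col4a1, parts of the basal lamina, were called higher, against 16.7% of all genes. Timp1, an inhibitor of metalloproteinases, was called lower, against 2.43% of all genes. Lama4 stood at 88.5 CPM in DPN and 34.5 CPM in control members, and Timp1 at 1283 CPM in DPN and 1979 CPM in control members.

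In each of the following growth factor and cytokine lists a single gene was called higher. These counts were near the 16.7% called among all genes and show no shift of the lists. Fgfr1, a receptor for Fgf2, stood at 56.9 CPM in DPN and 23.9 CPM in control members, 2.38-fold (1.81 to 3.14). It was the only gene called of 4 tested in the FGF receptor and co-receptor list. Dusp6, a phosphatase that ERK signalling induces against itself, was 1.95-fold (1.57 to 2.44). It was the only gene called of 5 tested in the ERK feedback and target list, where 9 of 11 were above 1 with a median of 0.47. Irs2, an adaptor of the insulin and IGF receptors, was 1.62-fold (1.42 to 1.86), the one gene called of 6 tested in the IGF list, which is the 16.7% called higher among all genes. The list's median log2 ratio was 0.40 over 10 genes measured, and -0.63 with a Mt- limit of 10%. Il6st, the gp130 subunit shared by receptors of the CLCF1 and IL-6 family, was 2.29-fold (1.88 to 2.81), the only gene called of 8 tested in its list. Nfkbiz, a nuclear regulator of NF-kB, was 2.30-fold (1.93 to 2.75), the only gene called of 7 tested in the TWEAK receptor and NF-kB list. Tnfsf12, which encodes TWEAK itself, was 1.14-fold (0.82 to 1.57). Vegfa, an angiogenic and trophic factor, was 1.57-fold (1.31 to 1.88), the only gene called of 6 tested in the trophic factor list. Each of these counts stands beside the 16.7% called higher among all genes.

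Of 18 endoplasmic reticulum (ER) chaperone genes 16 were above 1, with a median log2 ratio of 0.53. Hspa5 (BiP) stood at 2175 CPM in DPN and 821 CPM in control members, 2.65-fold (2.53 to 2.77), and Hsp90b1 (GRP94) at 692 CPM in DPN and 233 CPM in control members, 2.97-fold (2.74 to 3.23). Pdia3 and Sdf2l1 were also called higher, so 4 of 14 tested were called, against 16.7% of all genes. With a Mt- limit of 10%, though, Sdf2l1 was 1.16-fold. Of 11 cytosolic heat shock genes 0 were above 1, with a median of -0.43. Hspa1b, an inducible HSP70, stood at 1118 CPM in DPN and 3136 CPM in control members, 0.36-fold (0.34 to 0.37), and Cryab at 1774 CPM in DPN and 3243 CPM in control members, 0.55-fold (0.53 to 0.57). Hspe1 was called lower as well, so 3 of 11 tested were called, against 2.43% of all genes called lower. In non-myelinating SCs the medians over the same genes were 0.40 for ER chaperones and -0.56 for cytosolic heat shock genes, so both groups stood on the same sides there.

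Of 19 immediate early genes measured 18 were above 1 with a median of 0.52. Of 18 tested, 8 were called higher (Fos, Fosb, Jun, Egr1, Ier2, Klf6, Btg2, Dusp1), against 16.7% of all genes. With a Mt- limit of 10%, Fos at 1.39-fold, Jun at 1.42-fold, Btg2 at 1.42-fold and Dusp1 were short of the limit. Egr1 was 2.06-fold (1.96 to 2.16) and Fos 1.98-fold (1.90 to 2.06). All 12 cholesterol synthesis genes were above 1 with a median of 0.55, and 5 of 11 tested were called higher, against 16.7% of all genes. Hmgcs1, which makes HMG-CoA, stood at 969 CPM in DPN and 464 CPM in control members, 2.09-fold (1.96 to 2.22). Cyp51 and Lss were also among the 5, and with a Mt- limit of 10% the list's median was 0.15 and neither was called. Clock output genes had a median of 1.04 over 8 genes, with Dbp, Tef, Nr1d1 and Nr1d2 called of 5 tested, against 16.7% of all genes. Dbp stood at 70.5 CPM in DPN and 23.7 CPM in control members, 2.98-fold (2.29 to 3.90). Its partners Nr1d1 and Tef were 2.97-fold (2.42 to 3.67) and 2.36-fold (1.78 to 3.15).

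**Figure D4:**
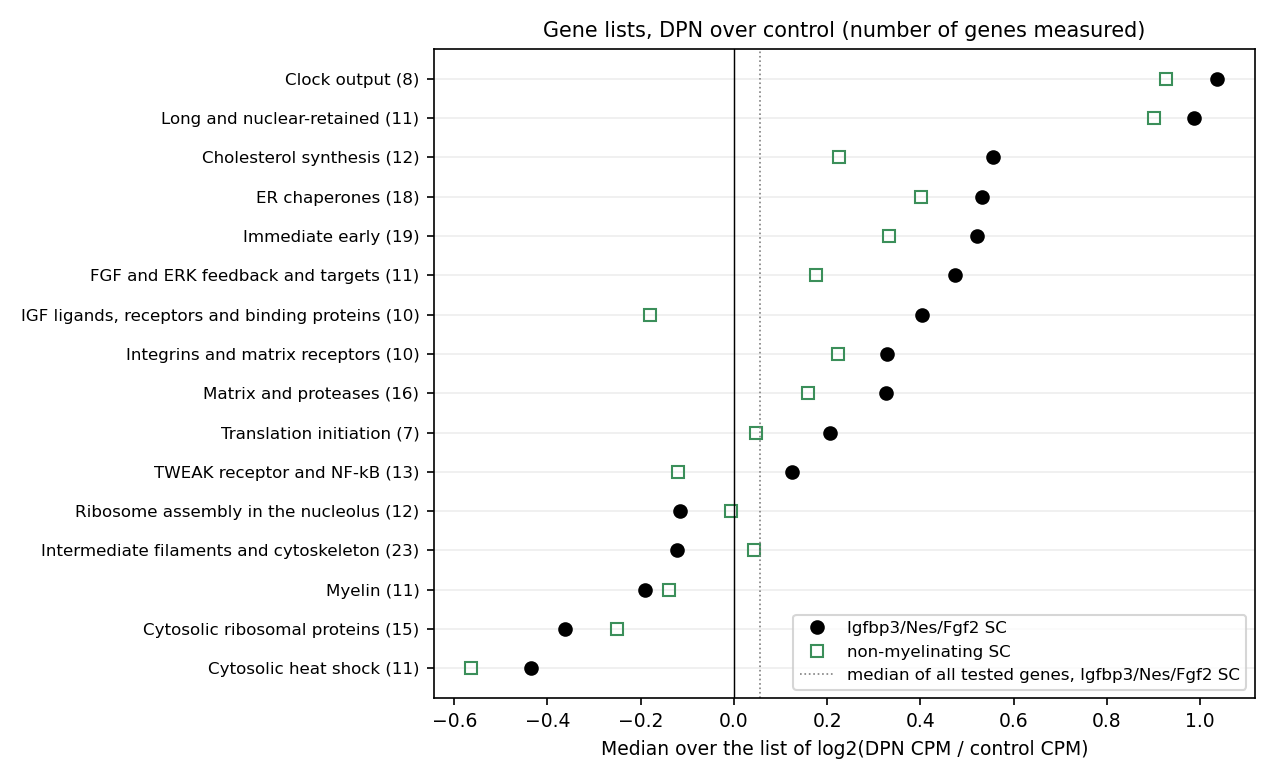
Median log2 ratio of DPN over control (x axis) over the genes of 16 lists (y axis, number of genes measured in brackets) in Igfbp3/Nes/Fgf2 Schwann cells (black circles) and non-myelinating SCs (green squares); the dotted line is the median of all 3494 genes tested in the Igfbp3/Nes/Fgf2 cells. Clock output stands at 1.04 and cytosolic heat shock at -0.43 in the Igfbp3/Nes/Fgf2 cells.

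Of 15 cytosolic ribosomal protein genes 0 were above 1, with a median log2 ratio of -0.36. Of these, 2 were called lower (Rps6, Rps19), against 2.43% of all genes. Rps19 at 163 CPM in DPN and 279 CPM in control members was 0.59-fold (0.52 to 0.66). Of the 12 genes of nucleolar ribosome assembly 3 were above 1. Fbl, the methyltransferase fibrillarin, was 0.61-fold (0.48 to 0.77), the 1 gene called lower of 11 tested, against 2.43% of all genes. Of 11 myelin genes 3 were above 1, with a median of -0.19 that turned to 0.12 with a Mt- limit of 10%. Cnp at 0.62-fold (0.56 to 0.67) was the 1 gene called lower of 10 tested, against 2.43% of all genes. Pmp22, a membrane protein of peripheral myelin, was 0.68-fold (0.65 to 0.71), short of the limit. Among lineage genes outside myelin, Lgi4, a secreted factor of glia that SCs need to ensheath axons, was 1.79-fold (1.63 to 1.97). Of 22 genes tested in the cytoskeleton list, 2 were called lower (Stmn1, Tagln2), against 2.43% of all genes. Another 3 were called higher, among them the tropomyosins Tpm1 and Tpm4, against 16.7% of all genes.

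The most enriched gene outside the gate, Ucn2, was also among the 12 lowest in DPN. It stood at 27.2 CPM in DPN and 50.2 CPM in control members, 0.54-fold (0.41 to 0.71). In non-myelinating SCs it was 0.57-fold (0.39 to 0.83). Eif4ebp1, a repressor of cap-dependent translation, was 0.49-fold (0.39 to 0.63), Ckb, the brain creatine kinase, 0.52-fold (0.49 to 0.56), and Ptgds, a prostaglandin D synthase abundant in SGCs, 0.51-fold (0.45 to 0.57). Apod had the lowest ratio of all, 0.14-fold (0.11 to 0.18), but 500 of its 616 control UMIs lay in 1 cell, which also held 75 UMIs of the fibroblast gene Dcn and was marked as a likely doublet. Without that cell Apod stood at 24.2 CPM in DPN and 33.1 CPM in control members, 0.73-fold (0.53 to 0.998), short of the limit.

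**Figure D5:**
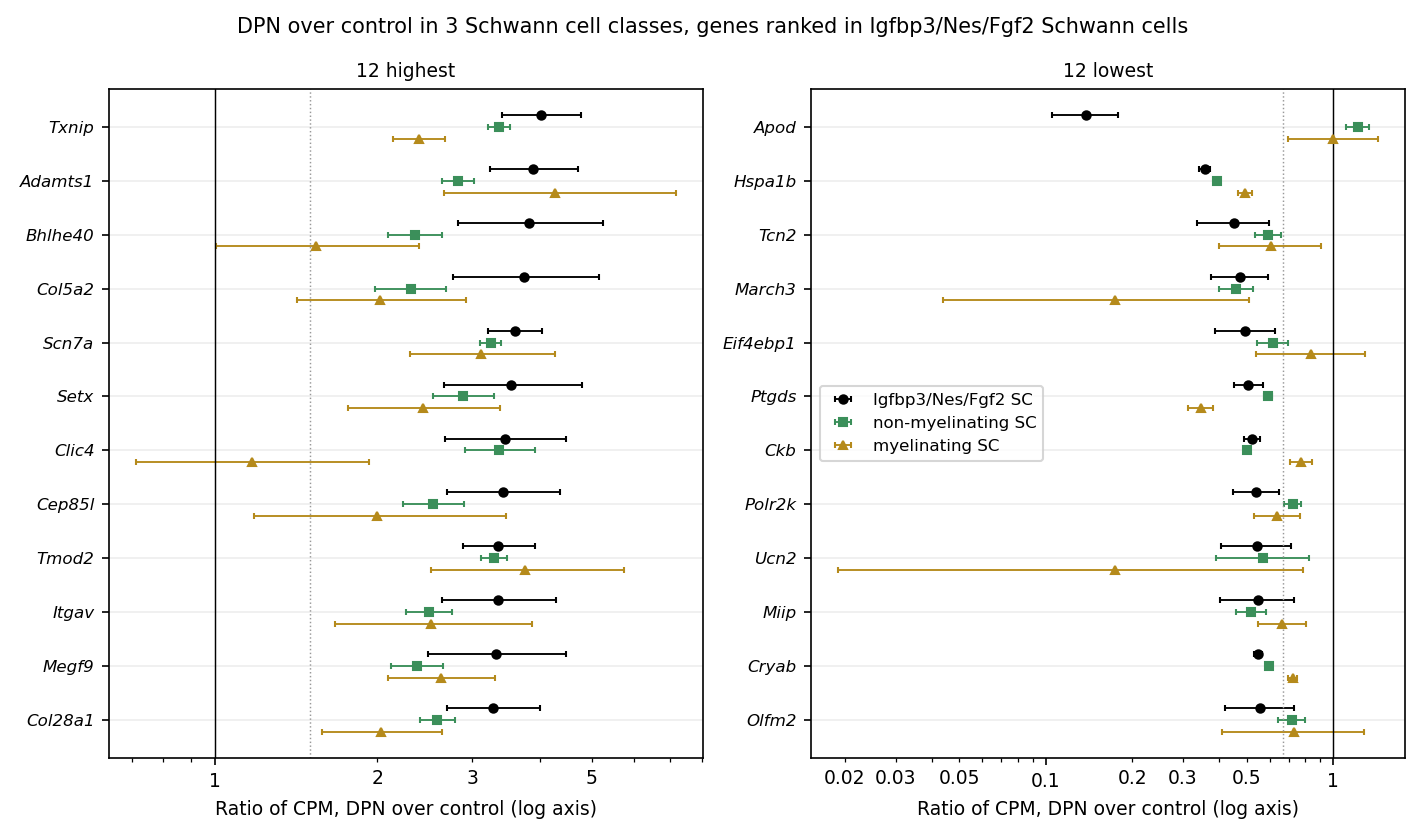
Ratio of CPM in DPN over control (x axis, logarithmic) for the 12 highest (left) and 12 lowest (right) genes of Igfbp3/Nes/Fgf2 Schwann cells (black circles), with the ratios of the same genes in non-myelinating SCs (green squares) and myelinating SCs (yellow triangles) and 95% intervals; dotted lines mark 1.5-fold and its inverse. Txnip leads at 4.03-fold, and Apod at 0.14-fold rests on 1 control cell.

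Neuronal transcripts moved with condition and are given beside these results. All 8 neuron markers were above 1 in members, with a median log2 ratio of 1.19, and their sum was 573 CPM in DPN and 281 CPM in control members. In non-myelinating SCs the sum was 938 CPM in DPN and 267 CPM in control. Calca, the peptide CGRP of sensory neurons, had a UMI in 46.5% of DPN and 27.1% of control members, against 48.2% of DPN and 38.0% of control satellite glia. Thinned to 1000 UMIs per cell, the shares were 13.6% of DPN and 3.67% of control members, against 7.10% of DPN and 4.12% of control satellite glia. The part of free neuronal RNA in other ratios was not tested.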

How the data were processed

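Cells of DRG digested with collagenase and trypsin were sequenced on the 10x platform, and per the labels and methods the authors aligned and counted reads with Cell Ranger 3.1.0 and STAR. The STAR version and genome build are not given in the sources used here. The deposited matrices hold raw UMI counts per gene and barcode, 1 library for each condition. Counts were summed by gene symbol over the gated cells and divided by their summed UMIs (CPM). Genes were called at a ratio of at least 1.5 or at most 0.667 between conditions, or at least 2 or at most 0.5 between classes in both libraries, where the interval left out 1. Cells of 1 library are not replicates, so no p-value was computed. List members needed at least 20 UMIs. Named genes were those of the gate, the label and the lists, the 12 highest and 12 lowest between conditions and the 15 highest and 15 lowest between classes; Syt4, Il6, Ch25h and the promoters were named after their values were seen. Some genes that met this rule are not reported here. The members and lists were chosen with earlier results of these data known. Gene lengths and promoters came from RefSeq tables (GRCr8), matched by symbol. Doublet scores came from simulated doublets with an assumed rate of 0.8% per 1000 barcodes. Myelinating SCs met the Prx, Mag and Cldn19 limit reversed. Satellite glia met the Fabp7 plus Tyrp1 limit reversed and had no S100b limit. Symbols shared by several identifiers (147) were summed. The call rule was tested on simulated data. Python 3.11.15, numpy 2.4.6, pandas 2.3.3 and scipy 1.17.1 were used. Alternatives are in the closing section.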

Additional observations from a re-analysis of the deposited data

How the results depend on the processing

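No paired analysis was possible because a single pool stands for each condition. A Mt- limit of 10% left 121 DPN and 112 control members, 95 genes higher and 49 lower in DPN (66.0% higher, against 87.3% as reported) and 23 genes higher than in non-myelinating SCs. Without the Emp1 limit there were 647 DPN and 813 control members, 940 and 193 genes, and 112 higher and 25 lower against non-myelinating SCs. With that limit on both classes, chosen after seeing the data, the last counts were 8 and 8, over 6308 tested genes in place of 8385. Thinning to 1000 UMIs gave 44 and 46 genes (48.9% higher) and 38 and 27 between classes. A mean-plus-1 scale (the mean count per 10000 UMIs over cells, plus 1) gave 55 and 9, and 7 and 7, a minimum of 20 UMIs 1241 and 160, and counting the AY172581 genes as mitochondrial 31 genes higher between classes. Median-ratio scaling gave 132 genes lower. The median log2 ratio moved to -0.14 when thinned and -0.11 at 10% Mt-. At 10% Mt- the ratio turned to 1.38 for Apod and 2.16 for Flnc. Without the Emp1 limit it turned to 0.16 for Calca, 0.63 for Prph and 0.98 for Stmn2. Of the 54 named genes called higher in DPN, 40 still met the limits of the call at 10% Mt- and 23 on the mean-plus-1 scale, and of the 22 called lower 14 and 5. The ratios of Cyp51 (1.27), Pfkfb3 (1.22), Dusp6 (1.45), Vegfa (1.40) and Nr1d2 (1.28) were among those that fell short at 10% Mt-, and those of Bhlhe40 (1.32), Fgfr1 (1.21), Lama4 (1.36) and Dbp (1.39) on the mean-plus-1 scale. The causes were not tested. With 1 pool each, differences between rats cannot be seen at any depth.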

Other observations

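Of the barcodes left out for 20% or more Mt- transcripts, 15 of the 1367 DPN barcodes and 27 of the 924 control barcodes met the rest of the gate. That is 1.1% of DPN and 2.92% of control barcodes. Met, the receptor of hepatocyte growth factor, was not tested between classes for lack of UMIs, with 32 UMIs (11.8 CPM) in DPN and 40 UMIs (11.4 CPM) in control members, against 3.05 CPM in DPN and 3.29 CPM in control non-myelinating SCs. Cd44, a hyaluronan receptor, stood at 241 CPM in DPN and 243 CPM in control members, against 115 CPM in DPN and 127 CPM in control non-myelinating SCs. Those non-myelinating SCs had no Emp1 limit. With the Emp1 limit on both classes, Met was 2.34-fold (1.40 to 3.90) in DPN and 1.76-fold (1.08 to 2.89) in control. Cd44 was then 1.53-fold (1.38 to 1.68) in DPN and 1.40-fold (1.27 to 1.54) in control.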
